A study of Homo sapiens with 8 samples.

Results

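The genes of fatty acid synthesis and desaturation were followed in HepG2 cells, a human hepatocellular carcinoma line, that overexpressed the drug-metabolizing enzyme CYP3A4. The 10 genes were taken from the 60230 genes of the count table by their symbols, namely the transcription factors SREBF1 and MLXIPL and the enzymes ACLY, ACSS2, ACACA, FASN, ELOVL6, SCD, FADS1 and FADS2. The study asked how compounds used in plastics change gene expression in such cells. All 8 samples came from this blasticidin-selected line after 24 h of treatment, with 2 replicates for each of 4 groups. Control cells received 0.2% DMSO. The other 3 groups received compound 4, compound 5 or compound 6, all bisphenolic antioxidants, each at the concentration that gave its own IC50 for cell viability. The doses therefore differ between compounds, and a difference between treatments is not a difference at matched dose. Compounds 4 and 6 are methylene-bridged bisphenols that differ in carrying tert-butyl groups or cyclohexyl groups beside the hydroxyls. Compound 5 has another bridge and carries tert-butyl groups where compound 4 has methyl groups. A transfected line is a limited model of liver, since its CYP3A4 level is set by the transgene as well as by the cell.

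Fatty acids are built in the cytosol from acetyl-CoA. ACLY makes acetyl-CoA from citrate, ACSS2 makes it from acetate, ACACA carboxylates it to malonyl-CoA, and FASN joins these units into palmitate. ELOVL6 lengthens palmitate, SCD places the first double bond, and FADS1 and FADS2 desaturate longer polyunsaturated chains. In liver, genes of this route are driven by SREBP-1c, a product of SREBF1 that responds to insulin and to sterols, and by ChREBP, the product of MLXIPL, which responds to glucose metabolites. SREBP proteins are made as membrane precursors and act only after they are cut, so the mRNA level of SREBF1 does not give the amount of active protein.

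The DNA just before the transcription start is shown for 3 of the genes, because SCD and ACLY fell with compounds 4 and 5 while SREBF1 did not pass the test. Each sequence holds the 250 bases before a start in the RefSeq promoter table (GRCh38.p14), written 5′ to 3′ on the gene's strand, and capitals mark CCAAT on either strand, the letters bound by NF-Y. The SCD window lies at chr10:100346983-100347232 on the plus strand, the ACLY window at chr17:41919023-41919272 on the minus strand, and the SREBF1 window at chr17:17836987-17837236 on the minus strand. By the gene spans given below, the ACLY window lies within the gene, and the SCD and SREBF1 windows reach into theirs. ACLY has another, overlapping window that is not shown.
SCD: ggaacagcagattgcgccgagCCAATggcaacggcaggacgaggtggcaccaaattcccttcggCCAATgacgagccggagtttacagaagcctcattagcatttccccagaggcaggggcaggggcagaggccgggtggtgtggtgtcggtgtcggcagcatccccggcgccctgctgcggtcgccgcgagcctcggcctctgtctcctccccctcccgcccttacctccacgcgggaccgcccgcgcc
ACLY: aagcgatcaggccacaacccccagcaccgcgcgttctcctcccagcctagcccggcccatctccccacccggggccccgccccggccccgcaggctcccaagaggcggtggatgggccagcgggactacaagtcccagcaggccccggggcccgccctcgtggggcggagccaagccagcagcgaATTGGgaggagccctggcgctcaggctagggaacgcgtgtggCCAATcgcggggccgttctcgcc
SREBF1: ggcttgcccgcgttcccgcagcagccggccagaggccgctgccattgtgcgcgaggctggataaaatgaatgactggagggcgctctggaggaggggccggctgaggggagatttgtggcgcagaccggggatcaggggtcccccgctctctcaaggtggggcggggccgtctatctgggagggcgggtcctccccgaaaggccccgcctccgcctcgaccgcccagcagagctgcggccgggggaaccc
SCD held the motif at 2 places in these 250 bases and the SREBF1 window held none. The 3 genes shown were chosen with their changes known. Which product of SREBF1 starts at its window was not determined, and its counts are per gene. Neither the window nor the counts can be read as those of SREBP-1c alone. Of the 9 genes searched, CCAAT was in at least 1 window of ACACA, ACLY, ACSS2, FADS2 and SCD and in none of those of ELOVL6, FADS1, MLXIPL and SREBF1. Of those with it, ACACA did not pass the test with any compound and the others fell with compounds 4 and 5. Of those without it, FADS1 fell with compounds 4 and 5 and ELOVL6 with compound 5, and MLXIPL and SREBF1 did not pass. Whether the motif bears on the changes was not tested. The table had an entry for 9 of the 10 genes, all but FASN, with 14 promoters in all, and motifs were searched on both strands from 250 bases before to 50 bases after the start. CCAAT was in 7 of the 14 member promoters and in 34.6% of the 35116 promoters of the table. GGGCGG, the letters of an Sp1 box, was in 12 of 14 and in 45.0% of all. TCACNCCAC, a form of the sterol regulatory element, was in 0 of 14 and in 1.13% of all, and CACGTG, an E-box, was in 0 of 14 and in 7.26% of all. These are matches of letters and not binding sites, and some of the 14 windows overlap.

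Libraries held 9472261 to 13308975 estimated counts, and levels are given as CPM, counts scaled to a common library total with TMM factors. A count of 3 was worth 0.225 to 0.317 CPM, and each of the 10 genes was above it in every sample. CYP3A4, the overexpressed gene, was at 198 and 207 CPM in DMSO, 287 and 216 after compound 4, 371 and 421 after compound 5, and 170 and 171 after compound 6. It was higher after compound 5 by 0.97 on the log2 scale (SE 0.13, adjusted p = 0.000724). Of 14 hepatocyte markers, all 14 were expressed. Their summed level was 43505 to 45526 CPM in DMSO, 34023 to 35117 after compound 4, 36660 to 37032 after compound 5 and 34810 to 41463 after compound 6. Among these markers 6 fell and 2 rose with compound 4, 4 fell with compound 5, and 2 fell with compound 6, beside 11.9%, 28.1% and 4.4% of all genes called in either direction. Of 12 markers of blood, stromal and endothelial cells, 9 were under 1 CPM in every sample, with PTPRC, COL1A2, DCN, KDR and STAB2 at 0, and the sum of all 12 was 43.9 to 58.6 CPM in DMSO, 71.4 to 71.7 after compound 4, 44.4 to 47.5 after compound 5 and 61.9 to 68.7 after compound 6. CD68 was called higher with compound 4 (0.80, adjusted p = 0.00790) and ACTA2 lower with compound 5 (-1.20, adjusted p = 0.000837), and these were the only 2 of the 12 that were tested. Mitochondrial transcripts took 4.91% and 5.12% of the counts in DMSO and more in every treated sample, 5.31% to 5.46% after compound 4, 5.87% to 6.15% after compound 5 and 5.58% to 6.21% after compound 6. The part of these shifts in the results that follow was not tested.

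ACLY, ACSS2, FASN, SCD, FADS1 and FADS2 fell with compounds 4 and 5, and ELOVL6 fell with compound 5. ACACA and the 2 transcription factors did not pass the test with any compound. A gene was called when its Benjamini-Hochberg adjusted p, over the 13404 genes tested, was under 0.05. All 10 genes passed the filter on low counts. With compound 4, 6 of the 10 fell and none rose, beside 11.9% of all tested genes called in either direction and 5.42% called lower. With compound 5, 7 of 10 fell and none rose, beside 28.1% called in either direction and 14.2% called lower. With compound 6, edgeR called 0 of 10 and DESeq2 also called 0, beside 4.4% of all genes called in either direction and 1.6% called lower. At an unadjusted p under 0.05 there were 5 of the 10, beside 20% of all genes. With compound 6 and no filter on low counts, edgeR called ACSS2, SCD and FADS2 lower, where 1441 of all genes were called. In the order compound 4, 5 and 6, the median log2 fold change of the 10 genes was -0.70, -0.77 and -0.24, and that of all genes tested was 0.00, -0.03 and 0.00. The changes ranged from -1.61 to 0.28, from -1.54 to -0.02 and from -0.98 to 0.30. All 3 comparisons share the DMSO samples. In these bulk samples, a lower level in every cell and fewer cells with a high level cannot be told apart.

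**Figure D1:**
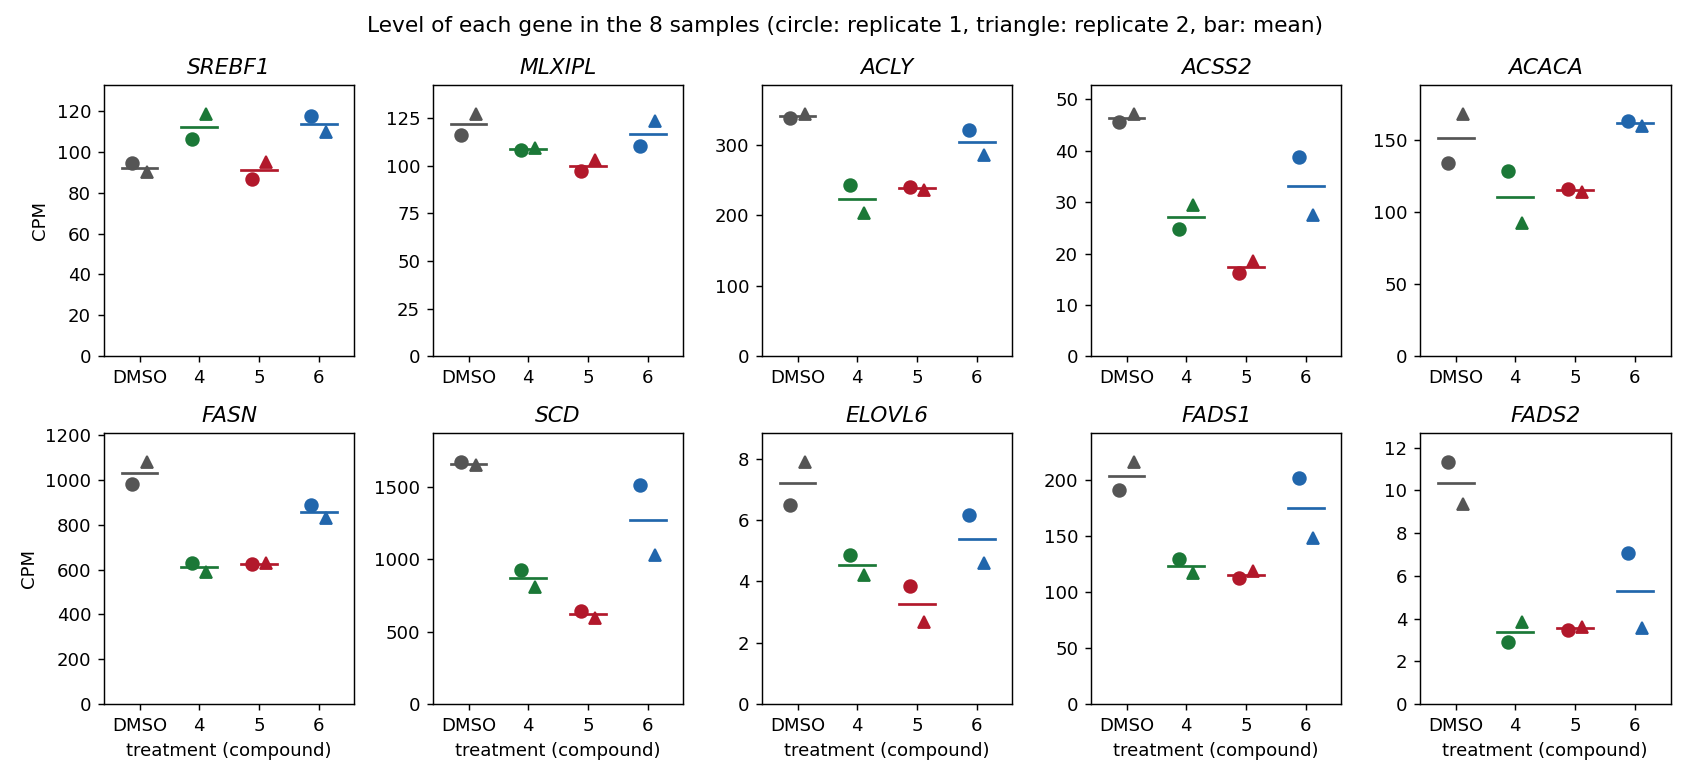
Level of each of the 10 genes in CPM (y axes, linear and starting at 0) in the 8 samples, by treatment (x axes). Circles are replicate 1, triangles are replicate 2 and bars are means. SCD went from 1672 and 1650 CPM in DMSO to 642 and 599 after compound 5, while SREBF1 stayed between 86.5 and 119 CPM in all 8 samples.

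Among the transcription factors, SREBF1 (ENSG00000072310, chr17:17810399-17837002, minus strand) stood at 94.6 and 90.0 CPM in DMSO, 106 and 119 after compound 4, 86.5 and 95.3 after compound 5, and 118 and 110 after compound 6. Both samples of compounds 4 and 6 lay above both DMSO samples, and those of compound 5 overlapped them. The log2 fold changes were 0.28 (SE 0.11, adjusted p = 0.117), -0.02 (SE 0.11, adjusted p = 0.902) and 0.30 (SE 0.11, adjusted p = 0.146), so none passed the test. The sign with compound 5 turned to above 0 with DESeq2, with RLE factors, with no filter and with only the 2 groups compared. MLXIPL (ENSG00000009950, chr7:73593194-73624543, minus strand) stood at 116 and 127 CPM in DMSO, 108 and 109 after compound 4, 97.0 and 103 after compound 5, and 110 and 124 after compound 6. The samples of compounds 4 and 5 lay under both DMSO samples and those of compound 6 overlapped them. Its changes of -0.16, -0.28 and -0.06 had adjusted p-values of 0.362, 0.0663 and 0.815. With compound 5 it was called lower under upper-quartile factors (-0.37, adjusted p = 0.0223), with library size alone (-0.39, adjusted p = 0.0194) and with only the 2 groups compared (-0.26, adjusted p = 0.0401) as well as without compound 4 replicate 1 (adjusted p = 0.0499).

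Of the genes that supply acetyl-CoA and malonyl-CoA, ACLY and ACSS2 fell with compounds 4 and 5, and ACACA did not pass the test. ACLY (ENSG00000131473, chr17:41866908-41930542, minus strand) was at 338 and 343 CPM in DMSO, 242 and 203 after compound 4, 241 and 235 after compound 5, and 321 and 285 after compound 6. All 6 treated samples lay under both DMSO samples, those of compound 6 nearest to them. ACLY fell by 0.61 on the log2 scale with compound 4 (SE 0.11, adjusted p = 0.00681) and by 0.52 with compound 5 (SE 0.11, adjusted p = 0.00716), and its change with compound 6 was -0.17 (adjusted p = 0.446). Without DMSO replicate 2 the adjusted p was 0.0685 with compound 4 and 0.0546 with compound 5. The call with compound 5 was also lost without compound 5 replicate 1 (adjusted p = 0.0603) or replicate 2 (adjusted p = 0.0547).

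ACSS2 (ENSG00000131069, chr20:34872146-34927962, plus strand) was at 45.7 and 47.2 CPM in DMSO, 24.7 and 29.4 after compound 4, 16.2 and 18.6 after compound 5, and 38.8 and 27.5 after compound 6. Its 4 groups stood in the order DMSO, compound 6, compound 4 and compound 5, and only the samples of compounds 4 and 6 overlapped. It fell by 0.78 with compound 4 (SE 0.17, adjusted p = 0.0131) and by 1.41 with compound 5 (SE 0.17, adjusted p = 0.000372), with a change of -0.49 after compound 6 (SE 0.17, adjusted p = 0.121). The call with compound 4 was lost without DMSO replicate 1 (adjusted p = 0.0625) or DMSO replicate 2 (adjusted p = 0.102). In percent of the DMSO mean, the compound 5 samples were at 34.9% and 40.1%.

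ACACA (ENSG00000278540, chr17:37084988-37406818, minus strand) was at 134 and 168 CPM in DMSO, 129 and 92.6 after compound 4, 116 and 114 after compound 5, and 164 and 160 after compound 6. The DMSO samples were about as far apart as those of compound 4, and the compound 6 samples lay between them. The changes were -0.45 (SE 0.16, adjusted p = 0.0862), -0.39 (SE 0.16, adjusted p = 0.0799) and 0.10 (SE 0.15, adjusted p = 0.789). DESeq2 called ACACA lower with compound 4 (-0.45, adjusted p = 0.0455), as did edgeR with no filter (-0.46, adjusted p = 0.00639) and without compound 4 replicate 1 (-0.71, adjusted p = 0.00953). The change was -0.22 without compound 4 replicate 2 (adjusted p = 0.372) and -0.28 without DMSO replicate 2 (adjusted p = 0.484). With compound 5 it was called lower with upper-quartile factors (adjusted p = 0.0343), library size alone (adjusted p = 0.0374), no filter (adjusted p = 0.0264) and only the 2 groups compared (adjusted p = 0.0138), and without compound 4 replicate 1 (adjusted p = 0.0187) or replicate 2 (adjusted p = 0.0252). It was -0.20 without DMSO replicate 2 and not called.

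FASN, which carries out the whole chain of reactions to palmitate, fell with compounds 4 and 5 to much the same level. FASN (ENSG00000169710, chr17:82078333-82098332, minus strand) was at 983 and 1079 CPM in DMSO, 630 and 591 after compound 4, 624 and 627 after compound 5, and 887 and 829 after compound 6. All treated samples were under the DMSO samples, and the compound 6 samples stood between DMSO and the other treatments. The fall was 0.76 on the log2 scale with compound 4 (SE 0.10, adjusted p = 0.00152) and 0.72 with compound 5 (SE 0.10, adjusted p = 0.000707). With compound 6 the change was -0.27 (SE 0.10, unadjusted p = 0.0220, adjusted p = 0.162, edgeR). Both FASN calls held when any single sample was left out.

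Among the desaturases and the elongase, SCD, FADS1 and FADS2 fell with compounds 4 and 5 and ELOVL6 with compound 5. SCD (ENSG00000099194, chr10:100347124-100364834, plus strand), the stearoyl-CoA desaturase, was at 1672 and 1650 CPM in DMSO, 928 and 811 after compound 4, 642 and 599 after compound 5, and 1515 and 1032 after compound 6. No 2 groups overlapped, in the order DMSO, compound 6, compound 4 and compound 5, and the compound 6 samples were the farthest apart. SCD fell by 0.93 with compound 4 (SE 0.16, adjusted p = 0.00453) and by 1.42 with compound 5 (SE 0.16, adjusted p = 0.000268), and its change after compound 6 was -0.38 (SE 0.16, adjusted p = 0.204). The calls with compounds 4 and 5 held when any single sample was left out. It had the highest DMSO level of the 10 genes per length, 310 CPM per kb of its principal transcript, ahead of FASN at 120 and ACLY at 78.5 CPM per kb. ELOVL6 at 1.11 and FADS2 at 2.85 CPM per kb were the lowest. Of the 31-base stretches in SCD transcripts, 12.6% also occurred in other genes, most of these in AC126365.1, so its counts may hold reads of that gene or the reverse.

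ELOVL6 (ENSG00000170522, chr4:110045846-110199199, minus strand) was at 6.50 and 7.89 CPM in DMSO, 4.87 and 4.21 after compound 4, 3.85 and 2.67 after compound 5, and 6.15 and 4.61 after compound 6. The treated samples all lay under DMSO, and compounds 4 and 6 overlapped. ELOVL6 fell by 1.15 with compound 5 (SE 0.26, adjusted p = 0.00855), while its changes of -0.67 (SE 0.25, adjusted p = 0.111) with compound 4 and -0.43 (SE 0.25, adjusted p = 0.368) with compound 6 did not pass. The call was lost without DMSO replicate 2 (adjusted p = 0.0748) or compound 5 replicate 2 (adjusted p = 0.0760).

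FADS1 and FADS2 lie on opposite strands of chromosome 11, with FADS1 (ENSG00000149485, chr11:61799625-61829318, minus strand) inside the span of FADS2 (ENSG00000134824, chr11:61792980-61867354, plus strand). The libraries were directional, but the strand setting of the counting is not given in the sources used here, and 399 of the 31-base stretches of the FADS1 transcripts, read on the other strand, also occur in FADS2. Levels of both are therefore uncertain to that extent. The same limit holds for SREBF1, since 502 of its 31-base stretches, read on the other strand, also occur in RAI1. FADS1, the delta-5 desaturase, was at 191 and 216 CPM in DMSO, 129 and 117 after compound 4, 112 and 119 after compound 5, and 201 and 148 after compound 6. The samples of compounds 4 and 5 overlapped each other and lay under all others. FADS1 fell by 0.73 with compound 4 (SE 0.14, adjusted p = 0.00918) and by 0.82 with compound 5 (SE 0.14, adjusted p = 0.00248), and its change was -0.22 (adjusted p = 0.425) with compound 6. Without DMSO replicate 2 the compound 4 call was lost (adjusted p = 0.0987).

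FADS2, the delta-6 desaturase, was at 11.3 and 9.37 CPM in DMSO, 2.91 and 3.82 after compound 4, 3.48 and 3.61 after compound 5, and 7.09 and 3.54 after compound 6. Every treated sample was under the DMSO samples, and compound 6 replicate 2 lay among those of compounds 4 and 5. FADS2 fell by 1.61 with compound 4 (SE 0.30, adjusted p = 0.00747), and with compound 5 it fell by 1.54 (SE 0.30, adjusted p = 0.00429). After compound 6 the change was -0.98 (SE 0.29, unadjusted p = 0.00648, adjusted p = 0.0832, edgeR). The compound 4 call was lost without DMSO replicate 1 (adjusted p = 0.0552).

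**Figure D2:**
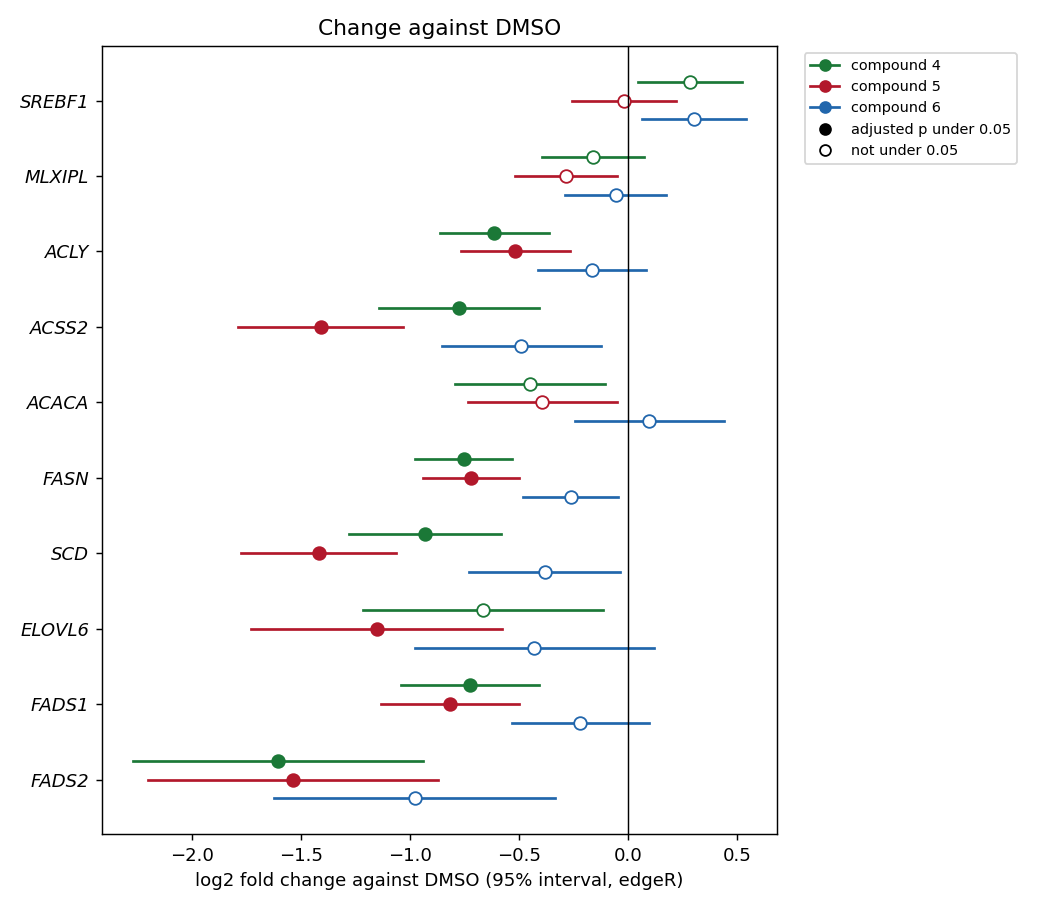
Log2 fold change against DMSO (x axis) of the 10 genes (y axis) with compounds 4, 5 and 6, from edgeR. Points are estimates, filled where the adjusted p was under 0.05, and lines are 95% intervals. The 6 genes called with compound 4 and the 7 called with compound 5 all lie left of 0, FADS2 farthest at -1.61 and -1.54, and no point of compound 6 is filled.

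Counted by samples, both samples of compound 4 were under both DMSO samples for 9 of the 10 genes and above them for 1, SREBF1. With compound 5 both were under for 9 and overlapped for 1. With compound 6 they were under for 6, above for 1 and overlapped for 3. Over all tested genes, 27.1%, 37.3% and 26.6% had both treated samples under both DMSO samples and 27.5%, 32.9% and 26.3% had both above. In the compound 6 samples, replicate 2 was lower than replicate 1 in 9 of the 10 genes, with a median log2 ratio of -0.29, and the median over all genes was 0.00. Without compound 6 replicate 1, 3 genes were called lower, beside 7.47% of all genes called in either direction, ACSS2 by -0.73 (adjusted p = 0.0306), SCD by -0.66 (adjusted p = 0.0209) and FADS2 by -1.51 (adjusted p = 0.0141). Without replicate 2 their changes were -0.25, -0.12 and -0.53 and none was called.

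Differences between treatments were tested in the same fit. Compound 5 left ACSS2 lower than compound 4 did, by -0.63 on the log2 scale (95% interval -1.02 to -0.25, adjusted p = 0.0388). That was 1 of the 10 genes, beside 13.9% of all genes called between these 2 treatments. With the replicate number as a block, ACSS2 was no longer called (adjusted p = 0.0521) and SCD was (-0.48, adjusted p = 0.0473). In the fit without the block the SCD difference was -0.49 (interval -0.84 to -0.14, adjusted p = 0.0628). In 8 alternative fits with both replicates of the groups compared, the block among them, ACSS2 was called lower in 6, SCD in 5 and SREBF1 in 2. The remaining genes were called in 0. The ACSS2 call was also lost without either DMSO sample, compound 4 replicate 2 or either compound 5 sample, with adjusted p-values from 0.0621 to 0.207. FASN, ACLY, ACACA and FADS1 had differences of 0.04, 0.10, 0.06 and -0.09 between these treatments. The 95% interval for FASN ran from -0.18 to 0.26 and for FADS1 from -0.41 to 0.23, and FADS2 had the widest interval, from -0.66 to 0.80. The differences of FASN and ACACA turned to just under 0 with upper-quartile factors or library size alone.

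Compound 5 left 4 of the 10 genes lower than compound 6 did, beside 9.91% of all genes called. SCD differed by -1.04 (interval -1.39 to -0.69, adjusted p = 0.00509), ACSS2 by -0.92 (-1.30 to -0.54, adjusted p = 0.0113), FADS1 by -0.60 (-0.91 to -0.28, adjusted p = 0.0285) and FASN by -0.45 (-0.67 to -0.24, adjusted p = 0.0189). The other 6 genes had differences from -0.72 to -0.23 that did not pass. In 8 alternative fits with both replicates of the groups compared, ACACA was called lower in 5, ACLY in 3 and SREBF1 in 2. ELOVL6, FADS2 and MLXIPL were called in 0. ACSS2, FASN and FADS1 each lost the call without compound 5 replicate 1, compound 5 replicate 2 or compound 6 replicate 1, and FADS1 also without DMSO replicate 2 (adjusted p = 0.0513). SCD lost it without compound 5 replicate 1 (adjusted p = 0.0517). When 1 sample was left out, the FASN difference ran from -0.49 to -0.41 and that of FADS1 from -0.79 to -0.36. That of ACSS2 ran from -1.14 to -0.66 and that of SCD from -1.27 to -0.74.

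Compounds 4 and 6 differ by tert-butyl against cyclohexyl groups, and edgeR called 0 of the 10 genes between them, beside 0.0448% of all genes called. At an unadjusted p under 0.05 there were 5 of 10, ACLY, ACACA, FASN, SCD and FADS1, each lower after compound 4, beside 9.81% of all genes at that threshold. The FASN difference was -0.49 (interval -0.71 to -0.27, adjusted p = 0.173), that of SCD -0.55 (-0.90 to -0.20, adjusted p = 0.341), and that of ACLY -0.45 (-0.70 to -0.20, adjusted p = 0.276). DESeq2 called 3, FASN (-0.50, adjusted p = 0.00127), SCD (-0.56, adjusted p = 0.0419) and ACLY (-0.45, adjusted p = 0.0458), beside 0.534% of all genes it tested. Leaving out 1 sample moved the SCD difference, which was -0.27 without compound 6 replicate 1 and -0.80 without replicate 2 (adjusted p = 0.656 and 0.0970), and that of FADS1, -0.29 and -0.71. The FASN difference ran from -0.54 to -0.45, that of ACLY from -0.58 to -0.33 and that of ACACA from -0.81 to -0.33. SREBF1 differed by -0.02 with an interval from -0.26 to 0.22.

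**Figure D3:**
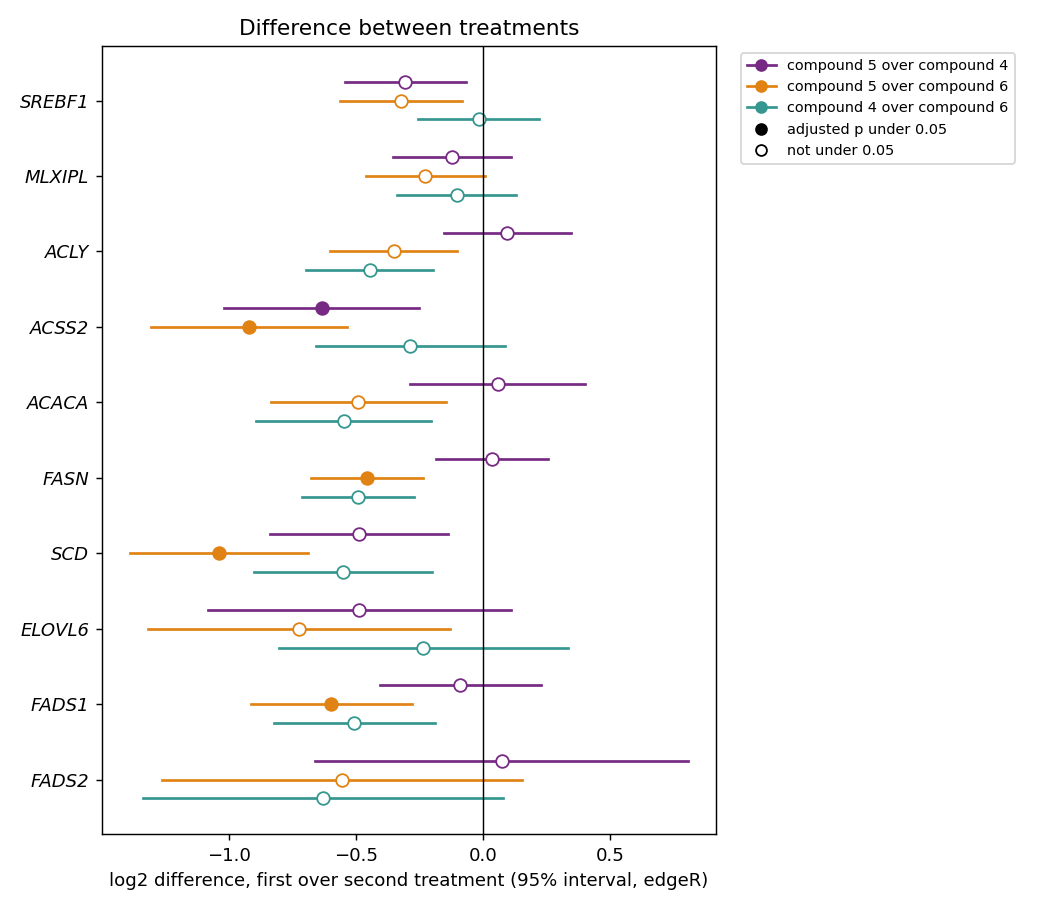
Log2 difference between treatments (x axis, first over second) for the 10 genes (y axis), from edgeR, with 95% intervals and filled points where the adjusted p was under 0.05. ACSS2 is filled for compound 5 over compound 4, SCD, ACSS2, FADS1 and FASN for compound 5 over compound 6, and no gene for compound 4 over compound 6.

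Over the 8 samples, Pearson's r of log2 CPM was 0.97 for ACLY and FASN, 0.96 for FASN and FADS1, 0.96 for SCD and FADS1, and 0.96 for ACSS2 and SCD. The lowest r between 2 enzymes was 0.49, for ACACA and FADS2. SREBF1 had r from -0.22 to 0.19 with the other 9 genes, and MLXIPL had r from 0.53 to 0.78 with the enzymes. These values describe 8 points that share 4 conditions, and many other genes were as close. Among the other tested genes ranked by r, the best placed of the other 9 was 8th for ACLY, 11th for FASN, 14th for FADS1, 30th for ELOVL6, 42nd for SCD, 86th for ACACA, 107th for ACSS2, 453rd for MLXIPL, 482nd for FADS2 and 5056th for SREBF1, with r of log2(CPM + 0.5). The tested gene with the profile nearest to ACSS2 was SLC25A1 (r = 0.995), the mitochondrial citrate carrier. The nearest to SCD was TMEM135 (r = 0.995), to FASN SLCO4C1 (r = 0.993), to SREBF1 LYPLA1 (r = 0.988), to ACLY FIGNL1 (r = 0.986), to FADS2 the hepatocyte marker AFP (r = 0.985), to ELOVL6 IFT81 (r = 0.984), to ACACA the cholesterol exporter ABCA1 (r = 0.981), to FADS1 CXADR (r = 0.977) and to MLXIPL TAPT1-AS1 (r = 0.968), each the highest of 13404 tested genes over the same 8 samples.

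**Figure D4:**
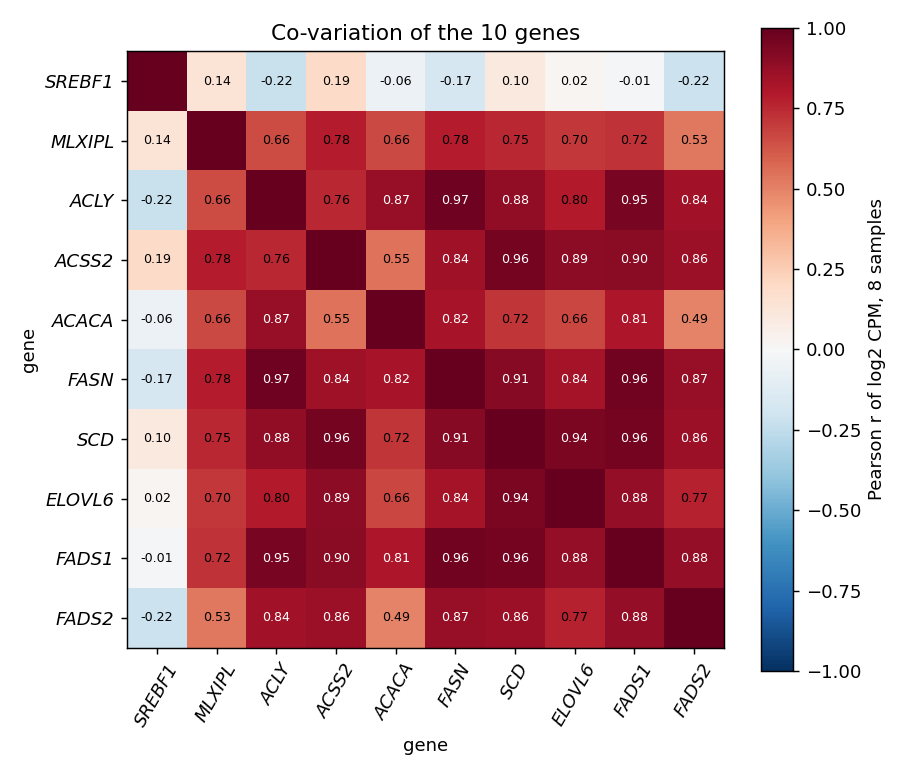
Pearson's r of log2 CPM over the 8 samples for each pair of the 10 genes (both axes), from blue at -1 to red at 1. The 8 enzymes form a red block, with r from 0.49 to 0.97, and the row of SREBF1 is pale, with r from -0.22 to 0.19.

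Other genes around the route were counted from lists chosen with earlier results of these data known. Of all genes tested, 6.5% were called higher and 5.42% lower after compound 4, 13.9% and 14.2% after compound 5, and 2.8% and 1.6% after compound 6. The counts of each list stand beside these shares. In the list of other genes of fatty acid synthesis and acetyl-CoA supply, 15 of 18 were tested, and 3 fell with compound 4, 7 with compound 5 and 1 with compound 6, with none higher. Their median changes were -0.25, -0.25 and -0.16. SLC25A1, which moves citrate out of mitochondria, was at 156 and 147 CPM in DMSO, 90.6 and 101 after compound 4, and 59.3 and 70.7 after compound 5. It fell by 0.66 (SE 0.14, adjusted p = 0.0127) and by 1.22 (SE 0.14, adjusted p = 0.000309). ACSS1, the mitochondrial acetyl-CoA synthetase, was the gene that fell with compound 6, by 0.55 (SE 0.11, adjusted p = 0.0212), from 144 and 143 CPM to 106 and 90.6. Its changes with compounds 4 and 5 were -0.54 and -0.52, both called.

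Other genes of elongation and desaturation had 13 of 17 tested, with 1 higher and 0 lower after compound 4, 1 higher and 1 lower after compound 5, and none called after compound 6, beside 11.9%, 28.1% and 4.4% of all genes called in either direction. FADS3, a relative of FADS1 and FADS2, rose from 14.0 and 12.3 CPM to 21.2 and 20.9 after compound 4 (0.68, SE 0.19, adjusted p = 0.0394) and to 16.6 and 23.1 after compound 5 (0.60, SE 0.19, adjusted p = 0.0366). CYB5B, a cytochrome b5, fell by 0.61 with compound 5 (SE 0.12, adjusted p = 0.00368). Of the acyl-CoA synthetases, which activate fatty acids, 11 of 12 were tested. With compound 4, 1 rose and 1 fell, with compound 5, 3 rose and 4 fell, and with compound 6, 2 rose, where 6.5%, 13.9% and 2.8% of all genes rose and 5.42%, 14.2% and 1.6% fell. ACSL5 rose by 1.26 with compound 5 (SE 0.13, adjusted p = 0.000176), from 132 and 132 CPM to 341 and 293. SLC27A4, a fatty acid transport protein, rose by 0.59, 0.68 and 0.61 with compounds 4, 5 and 6. ACSM3 fell by 1.65 and 1.67 with compounds 4 and 5, and ACSL6 fell by 2.11 with compound 5, from 2.56 and 3.62 CPM to 0.367 and 1.02, the former close to the floor of 3 counts.

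Glycerolipid synthesis and storage genes, which use fatty acids for triglycerides, went both ways, with 20 of 22 tested. With compound 4, 3 rose and 2 fell, with compound 5, 6 rose and 5 fell, and with compound 6, 2 rose and 1 fell, beside 11.9%, 28.1% and 4.4% of all genes called either way. PNPLA3, a lipase of lipid droplets, was at 23.2 and 28.3 CPM in DMSO, 7.78 and 9.44 after compound 4, 6.32 and 6.99 after compound 5, and 16.9 and 14.2 after compound 6. Its log2 changes were -1.58 (adjusted p = 0.000520), -1.95 (adjusted p = 9.66e-05) and -0.74 (adjusted p = 0.0321), all called. GPAT3, a glycerol-phosphate acyltransferase, was at 34.0 and 32.0 CPM in DMSO, 64.0 and 73.8 after compound 4, 95.6 and 94.8 after compound 5, and 60.6 and 80.5 after compound 6. It rose by 1.06 (adjusted p = 0.00161), 1.53 (adjusted p = 0.000109) and 1.10 (adjusted p = 0.00465).

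The lists of regulators and their other targets were counted in the same way. Of SREBP processing and control genes, 16 of 17 were tested, 1 rose with compound 4, 2 rose and 1 fell with compound 5, and none was called with compound 6, beside the same 11.9%, 28.1% and 4.4%. USF2, a factor that binds E-boxes, rose by 0.54 (adjusted p = 0.0111) and 0.59 (adjusted p = 0.00372) with compounds 4 and 5. SREBF2, the gene of SREBP-2, fell by 0.48 with compound 5 (SE 0.09, adjusted p = 0.00425), from 255 and 246 CPM to 176 and 184. The sterol targets of SREBP were all tested, 17 of 17, and 15 fell with compound 4, 16 with compound 5 and 13 with compound 6, with medians of -0.97, -1.27 and -0.72, beside 5.42%, 14.2% and 1.6% of all genes called lower. In this list 1 gene rose with compound 5 and 1 with compound 6.

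LXR receptors and targets had 7 of 8 tested, with 1 higher and 1 lower after compound 4, 1 higher and 2 lower after compound 5 and none called after compound 6, beside 11.9%, 28.1% and 4.4% of all genes. ABCA1 fell by 0.71 (adjusted p = 0.0457) and 0.59 (adjusted p = 0.0492) with compounds 4 and 5. MYLIP, a ubiquitin ligase, fell by 1.22 with compound 5 (adjusted p = 0.00802). NR1H2, the gene of LXR beta, rose by 0.55 with compound 5 (adjusted p = 0.0236), and SMPDL3A rose by 0.68 with compound 4 (adjusted p = 0.0215). In the list of the ChREBP partner and carbohydrate-response targets, 11 of 13 were tested. With compound 4, 2 rose, with compound 5, 3 rose and 6 fell, and with compound 6, 1 rose. Of all genes, 6.5%, 13.9% and 2.8% were called higher, and 14.2% lower with compound 5. MLX and MLXIP, the transcription factors of this list, rose with compound 5, as did the target GCKR. The 6 that fell were all targets. PKLR, the liver pyruvate kinase, fell by 1.20 with compound 5 (SE 0.16, adjusted p = 0.000595), from 16.0 and 15.5 CPM to 6.23 and 7.38. GCKR, the glucokinase regulator, rose by 1.10 (adjusted p = 0.00848), 1.04 (adjusted p = 0.00541) and 1.19 (adjusted p = 0.0152) with compounds 4, 5 and 6, from 6.60 and 7.23 CPM in DMSO to at least 12.1 CPM in every treated sample.

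**Figure D5:**
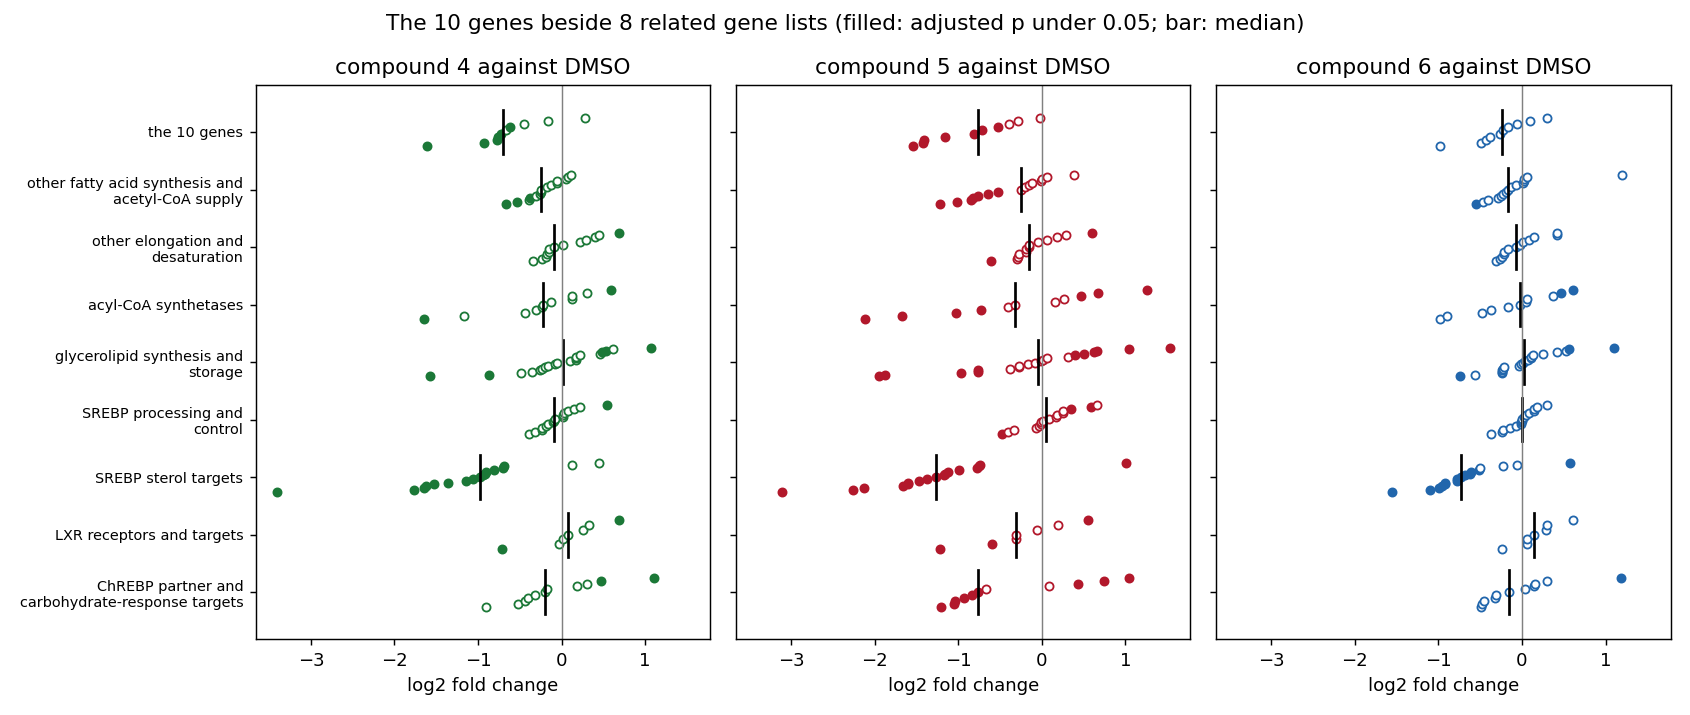
Log2 fold change against DMSO (x axis, same scale in all 3 panels) of the 10 genes and of 8 related lists (y axis), with 1 circle per tested gene, filled where the adjusted p was under 0.05, and a bar at each median. The bar of the 10 genes lies at -0.70, -0.77 and -0.24 with compounds 4, 5 and 6, and that of the sterol targets at -0.97, -1.27 and -0.72.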

How the data were processed

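RNA from 8 samples of CYP3A4-overexpressing HepG2 cells was enriched for mRNA with poly-A and made into directional libraries. By their labels, replicate 1 of compounds 4 and 5 was each merged from 2 S numbers, whose meaning the labels do not give. The authors quantified reads with Salmon 1.5.0 on the GENCODE transcriptome (GRCh38) after FastQC 0.12.0, and summarised transcripts to genes with tximeta, for a DESeq2 1.38.3 analysis, per the submitters' processing notes. The deposited values are estimated counts per gene for 60230 genes, held as whole numbers and not scaled. Symbols were looked up by Ensembl identifier and found for 60089 of them. Coordinates and transcript lengths came from GENCODE 29 on GRCh38, and promoters from RefSeq. The transcript stretches compared between genes were 31 bases long.

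The analysis used edgeR 4.0.16 in R 4.3.3. Libraries were scaled by TMM (factors 0.958 to 1.04), genes were kept by filterByExpr (13404), and 1 quasi-likelihood fit held all 8 samples in their 4 groups. Fold changes, SEs, 95% intervals and adjusted p-values are from this fit unless DESeq2 1.42.0 is named, and calls are at 0.05 over all tested genes. Alternatives were DESeq2, RLE and upper-quartile factors, library size alone, no filter, at least 10 counts in every sample, a replicate block, only the 2 groups compared, a threshold of 0.01, and leaving out each of the 8 samples. With 2 replicates a group, leaving out a sample leaves a lone sample assumed to vary like the other groups.

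Replicate numbers follow the sample labels, which put the samples of each group on day 1 and day 2 without saying what was repeated on each day, and served as the block. Deviations of same-numbered samples from their group means had correlations from -0.108 to 0.218 between groups. The p-values measure the spread between these samples, and whether it includes separate cultures is not stated. Replicates of no group agreed within sampling noise (chi-square per degree of freedom 5.82 to 18.4). The floor of 3 counts covers counting error only. The 10 genes and the lists were chosen with earlier results of these data known. By rule, genes named outside the 10 were CYP3A4, the gene nearest in profile to each, and, from each pathway list and comparison with DMSO, the called genes with the highest and the lowest change among those with a mean of at least 1 CPM. Values of 2 genes that the pathway rule selects are not reported here. Marker lists were given by counts and summed level, and the single markers named were chosen after their values were seen. So were MLX, MLXIP, AC126365.1, which shares sequence with SCD, and RAI1, which shares sequence on the other strand with SREBF1.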

Additional observations from a re-analysis of the deposited data

How the results depend on the processing

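None of the 10 genes was called higher in any of the 6 comparisons under any alternative run. Against DMSO, the genes called with compounds 4 and 5 stayed within 1.5 times of 6 and 7 under all alternatives other than leaving out a sample, which gave 3 to 7 with compound 4, 5 to 9 with compound 5 and 0 to 3 with compound 6, and medians of -0.80 to -0.60, -0.84 to -0.66 and -0.36 to -0.13. The 3 calls without DMSO replicate 2 are the low end with compound 4. The median with compound 5 was -0.85 with upper-quartile factors and -0.87 with library size alone, where the median of all genes moved by -0.10. Compound 6 had 3 of the 10 called with no filter, ACSS2, SCD and FADS2. There 1441 of all genes were called, beside 590 in the main fit, and the number of genes tested differed. Between compounds 5 and 4, where 1 was called, there were 2 with DESeq2 or no filter, 3 with upper-quartile factors or library size alone, 0 with only the 2 groups or at 0.01, and 0 to 2 without a sample. Between compounds 5 and 6, where 4 were called, there were 7 with upper-quartile factors or library size alone, 1 at 0.01, and 0 to 6 without a sample. Between compounds 4 and 6 there were 3 with DESeq2, 5 with no filter, and 0 to 2 without a sample. Over all genes, compounds 5 and 4 had 1570 calls with DESeq2, 1863 with upper-quartile factors and 1854 with library size alone, beside 1869 in the main fit. Compounds 5 and 6 had 1465 with upper-quartile factors and 1469 with library size alone, beside 1329. All-gene counts with no filter are given below. The cause of these shifts was not tested.

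With the replicate block the genes called were 6, 7 and 0 against DMSO and 1, 4 and 0 between compounds 5 and 4, 5 and 6, and 4 and 6, and the 1 differed (SCD in place of ACSS2), while no other call of the 10 genes changed. All-gene counts under the block were 1549, 3676, 499, 1636, 1224 and 6. A crossed pairing for compound 4, chosen after seeing the data, called 1507 genes and 6 of the 10.

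Over all genes, the counts called of 1598, 3763 and 590 against DMSO became 591, 1809 and 92 at 0.01, and with no filter compound 6 had 1441. Leaving out a sample gave 335 to 1703, 1680 to 4519 and 1 to 1096. Compound 5 against 4, with 1869, had 2812 with no filter, 897 with only the 2 groups, 279 at 0.01 and 111 to 2709 without a sample. Compound 5 against 6, with 1329, had 2117 with no filter, 282 at 0.01 and 143 to 1875 without a sample. Compound 4 against 6, with 6, had 74 with DESeq2, 294 with no filter, 2 with only the 2 groups, 1 at 0.01 and 0 to 117 without a sample. The share of calls that were higher with compound 5 was 49.3%, 36.6% with upper-quartile factors, 33.3% with library size alone and 59.2% with DESeq2. Against compound 4 it was 49.5%, 31.3% with library size alone and 67.1% with DESeq2, and against compound 6 48.0%, 28.4% and 64.5%.

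Some signs turned, most of them for changes near 0, and that of FADS2 between compounds 5 and 6, at -0.56, turned without 1 sample. SREBF1 with compound 5 was 0.0109 with DESeq2, 0.0013 with RLE factors, 0.0084 with no filter, 4e-04 with only the 2 groups and -0.093 to 0.0738 without a sample. Between compounds 5 and 4, ACACA was -0.007 and FASN -0.0301 with upper-quartile factors, and -0.0088 and -0.0297 with library size alone. Without a sample, ACACA ran from -0.15 to 0.32, ACLY from -0.0174 to 0.23 and FADS2 from -0.11 to 0.30 between compounds 5 and 4, FADS2 from -0.98 to 0.0014 between 5 and 6, SREBF1 from -0.10 to 0.0596 between 4 and 6, and, with compound 6, ACACA from -0.0562 to 0.27 and MLXIPL from -0.14 to 0.0486.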
